A study of Homo sapiens with 3 samples.

Results

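Replication licensing was followed in the established human colorectal cancer line HT29 through 10 genes: the helicase subunits MCM2, MCM3, MCM4, MCM5, MCM6 and MCM7, the loading factors ORC1, CDC6 and CDT1, and the inhibitor geminin, encoded by GMNN. They were found by their symbols in the annotation of the array, which carried 18639 named genes. The 10 genes had 11 spots, 2 of them for GMNN, and all 11 spots were detected on all 3 arrays. Cells had been kept for 24 h with a derivative of linderapyrone at 5 or 20 µM, or with DMSO alone as the control, and their total RNA was labelled. Linderapyrone is a plant compound described as an inhibitor of Wnt signalling, and of the derivative no structure was given in the sources used here. A group was 1 sample on 1 one-colour array. There were no replicates, so no test was possible and the spread between cultures is unknown. Doses appear as mM in the sample titles and as µM in the treatment labels, and the latter were used.

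Licensing is the step of late mitosis and G1 in which an origin of replication is prepared for a single use. The origin recognition complex, with ORC1 as its cell-cycle-regulated subunit, recruits CDC6 and then CDT1, and together they load the ring of MCM2 to MCM7 on DNA as an inactive helicase. In S phase the ring is activated, and geminin binds CDT1 so that no second ring is loaded. The genes are classic targets of E2F transcription factors, and licensing proteins serve widely as markers of cells that are able to divide, among them the crypt cells of the colon.

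The arrays were alike in median spot signal and in the share of spots detected, but not in the signal of bright genes. The median spot signal lay between 107 and 117, against detection thresholds between 79.4 and 82.5, and between 85.6% and 86.2% of the gene spots were detected. Of the markers of colon epithelium 10 of 10 were detected on every array. The collagen genes COL1A1 and COL1A2, the leukocyte gene PTPRC and the endothelial gene PECAM1 were not detected on any array. Of 6 fibroblast markers 4 were detected, and their summed spot signal, all 6 included, lay between 653 and 692. Of 4 endothelial markers 3 were detected, with sums between 368 and 397. Of 4 blood and immune markers 3 were detected, with sums between 12389 and 16135, nearly all of it from lysozyme, LYZ. The part of these markers in the results below was not tested.

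The promoters are shown first because MCM2, MCM3 and MCM6, lower at 20 µM, share a motif with CDC6, which was higher. MCM7 and CDT1, less than 1.5-fold from DMSO, hold it too. RefSeq promoter windows of assembly GRCh38.p14 were at hand for 8 of the 10 genes, in 11 windows, with MCM4 and MCM5 not among them. The runs below reach from 180 bases before the start site to 29 bases after it, 5′ to 3′ on the strand of the gene. Every run printed holds an E2F word. The window of ORC1 and the other window of GMNN have no E2F word and are not printed. Those of MCM7 are not printed either, and MCM7 window 3 has 2 E2F words. Capitals mark matches, on either strand, to the E2F words TTTCCCGC, TTTCGCGC, TTTGGCGC or TTTGCCGC.
CDC6, chr17:40287699-40287908, + strand: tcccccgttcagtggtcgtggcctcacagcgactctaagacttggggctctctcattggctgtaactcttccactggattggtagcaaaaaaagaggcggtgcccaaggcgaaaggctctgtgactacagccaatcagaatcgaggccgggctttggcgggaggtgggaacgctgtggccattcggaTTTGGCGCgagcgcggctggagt
MCM2, chr3:127598231-127598440, + strand: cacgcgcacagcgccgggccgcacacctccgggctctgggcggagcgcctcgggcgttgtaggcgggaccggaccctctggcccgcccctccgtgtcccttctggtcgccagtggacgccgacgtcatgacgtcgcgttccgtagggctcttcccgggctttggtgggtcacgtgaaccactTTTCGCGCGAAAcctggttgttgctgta
MCM3, chr6:52284713-52284922, - strand: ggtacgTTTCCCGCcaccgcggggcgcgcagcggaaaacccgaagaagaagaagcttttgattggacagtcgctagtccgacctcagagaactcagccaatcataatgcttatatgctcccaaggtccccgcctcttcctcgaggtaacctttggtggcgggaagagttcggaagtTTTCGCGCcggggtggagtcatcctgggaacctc
MCM6, chr2:135876414-135876623, - strand: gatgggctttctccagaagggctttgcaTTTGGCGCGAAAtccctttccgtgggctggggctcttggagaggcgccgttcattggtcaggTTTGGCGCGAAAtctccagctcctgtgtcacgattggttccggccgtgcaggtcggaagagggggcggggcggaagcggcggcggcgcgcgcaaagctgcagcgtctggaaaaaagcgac
GMNN, chr6:24775233-24775442, + strand: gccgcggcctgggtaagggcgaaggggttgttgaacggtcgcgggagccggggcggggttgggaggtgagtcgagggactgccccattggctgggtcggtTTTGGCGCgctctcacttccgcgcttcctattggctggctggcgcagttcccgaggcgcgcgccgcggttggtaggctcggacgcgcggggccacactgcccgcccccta
CDT1, chr16:88803609-88803818, + strand: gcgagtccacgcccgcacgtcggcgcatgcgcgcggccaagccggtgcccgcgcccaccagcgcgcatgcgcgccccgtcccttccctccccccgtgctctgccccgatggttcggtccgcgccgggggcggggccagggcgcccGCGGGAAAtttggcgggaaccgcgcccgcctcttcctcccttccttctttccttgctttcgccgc

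An E2F word was present in 7 of the 11 windows, and in at least 1 window of 7 of the 8 genes. Of all 35116 windows of 300 bases in the same table, 3.31% held one. The window of MCM6 had 4 matches, in overlapping pairs at positions -152 to -141 and -90 to -79 from the start site. MCM2 had 2 overlapping matches, at 2 to 9 and 6 to 13 bases after the start site. MCM3 had 2 separate matches, and CDC6 had 1, at 7 to 14 bases after the start site. ORC1 had none in its window. A CCAAT box, the word CCAAT, stood in 8 of the 11 windows against 34.6% of all windows, and a GC box, GGGCGG, in 9 against 45%. The word TTTGAA, the core of the CHR element of mitotic genes, was in 0 of the 11 windows and in 15.2% of all. The search covered both strands, and the E2F word of 1 MCM7 window overlapped a CCAAT word by 1 base. These are matches of letters and not measured binding sites. Genes with and without an E2F word at 20 µM are compared further down.

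**Figure D1:**
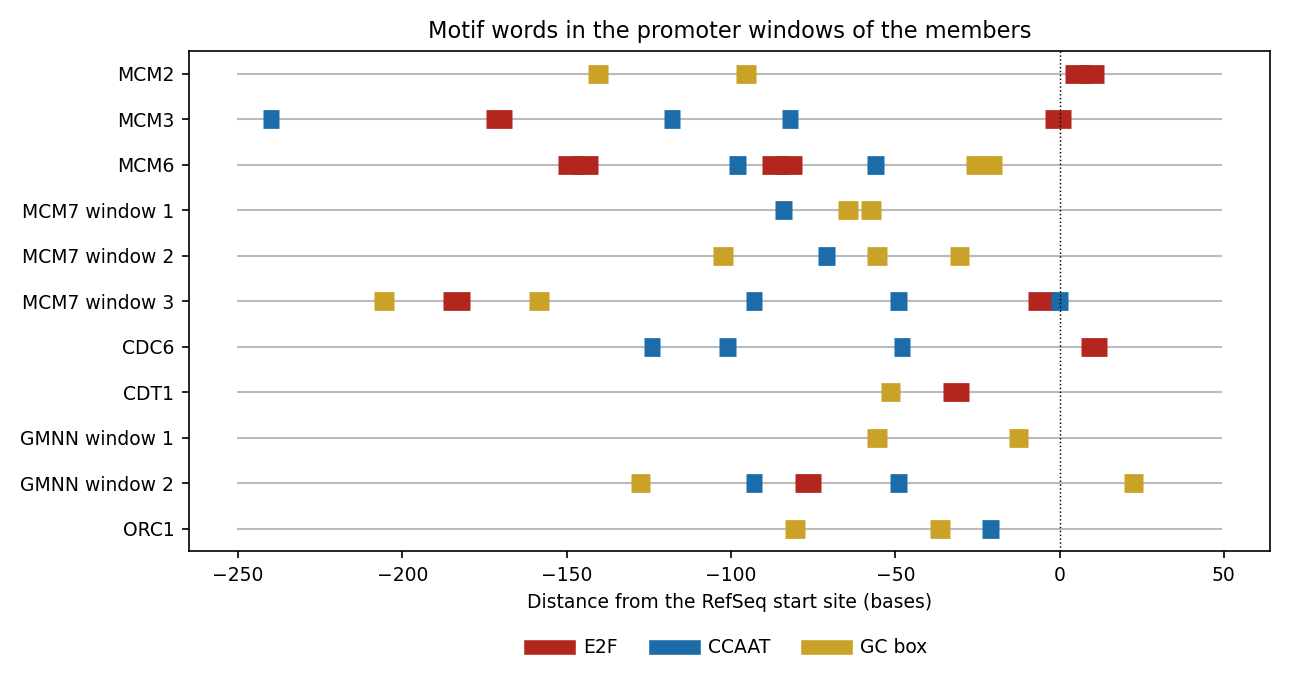
Positions of motif words in the 11 promoter windows of 8 members; the x axis is the distance from the RefSeq start site in bases, and each row is 1 window. Red bars are E2F words, blue bars CCAAT words and yellow bars GC boxes. E2F words stand in 7 windows, among them those of CDC6, which was higher at 20 µM, and of MCM2, MCM3 and MCM6, which were lower. They also stand in windows of GMNN, MCM7 and CDT1, with log2 ratios of -0.50, -0.12 and -0.087 at 20 µM.

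Levels are given below as normalized signal, that is, the spot signal after background correction with an offset of 50 and after quantile normalization of the arrays. A log2 ratio is the difference of 2 such values on the log2 scale, and the offset makes it understate the differences of dim genes. Because probes bind with unequal strength, a level was set against the same probe on another array and never against another gene. The technical spread of a single log2 ratio was taken from 480 genes with 2 probes as bright as the members. Its SD was 0.15 for 20 µM against DMSO, 0.14 for 5 µM against DMSO and 0.13 for 20 against 5 µM. It leaves out whatever differed between the dishes.

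Within the helicase MCM2, MCM3, MCM4 and MCM6 were lower at 20 µM, and CDC6 was higher, while MCM5, MCM7, CDT1 and ORC1 lay between -0.17 and 0.0033 on the log2 scale. At 20 µM, 4 of the 10 genes were at least 1.5-fold lower than in DMSO, against 1.84% of the 16062 genes detected on both arrays. There was 1 member at least 1.5-fold higher, against 1.94% of all genes. Among the 5925 genes within the range of mean levels of the members, the shares were 3.9% lower and 3.98% higher. The median log2 ratio of the 10 genes was -0.34, with 8 of 10 below 0, beside a median of 0.0071 and 47.1% below 0 over all genes. The balance of calls over all genes turned with the scaling: 295 genes were lower and 312 higher here, but 502 lower and 225 higher when the arrays were scaled to a common median. In bulk RNA, fewer cells in a phase and less RNA per cell cannot be told apart.

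MCM2, a subunit at the gate through which the ring opens, had a normalized signal of 1471 with DMSO alone, 1459 at the lower dose and 909 at the higher dose. After quantile normalization its 5 µM value was level with DMSO, and the 20 µM array stood apart. The latter was 1.62-fold lower than DMSO, a log2 ratio of -0.70. At 5 µM the ratio of MCM2 was -0.28 with median scaling and -0.13 in the authors' value table. MCM3 ran the same way, with 511 in DMSO, 495 at 5 µM and 312 at 20 µM, a ratio of -0.71 at the higher dose. For MCM6 the values were 992, 892 and 586, and its ratio of -0.76, or 1.69-fold lower, was the most negative of the members. MCM4 stood at 1332, at 1149.8 and at 833, which is 1.60-fold lower at 20 µM. The ratios of these 4 subunits lay between -0.76 and -0.68, closer together than the technical SD. Their spot signals at 20 µM were between 4.16 and 11.6 times the detection threshold, so none was near the dim end of the array.

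The other subunits of the ring did not share this difference between 20 µM and DMSO. MCM5, which faces MCM2 across the gate, had 409.8 in DMSO, 534 at 5 µM and 411 at 20 µM. It was thus 1.30-fold higher at 5 µM, a ratio of 0.38, and at 0.0033 level with DMSO at 20 µM. MCM7 had 1328, 1453 and 1218, with ratios of 0.13 and -0.12 that stayed within 1 technical SD of 0 in the main setting. At 20 µM its ratio was below 0 in all 8 settings without the background column. For a gene with 1 spot, the settings of the detection filter and the probe mean only repeat the main value. The ratio of MCM7 was -0.26 with median scaling and -0.17 in the authors' value table. In the same order, the genes in the level range of the members had medians of -0.084 and -0.023. The technical SD was taken in the main setting alone and is not known for these values. The ratios of the 6 subunits at 20 µM spanned 0.76 from MCM6 to MCM5, several times the technical SD. Each subunit was read by 1 spot, and the grouping into 4 lower and 2 level subunits was made after their values were seen. It holds against the single DMSO array. Against the 5 µM array all 6 subunits were lower at 20 µM, MCM5 by a ratio of -0.38 and MCM7 of -0.25.

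**Figure D2:**
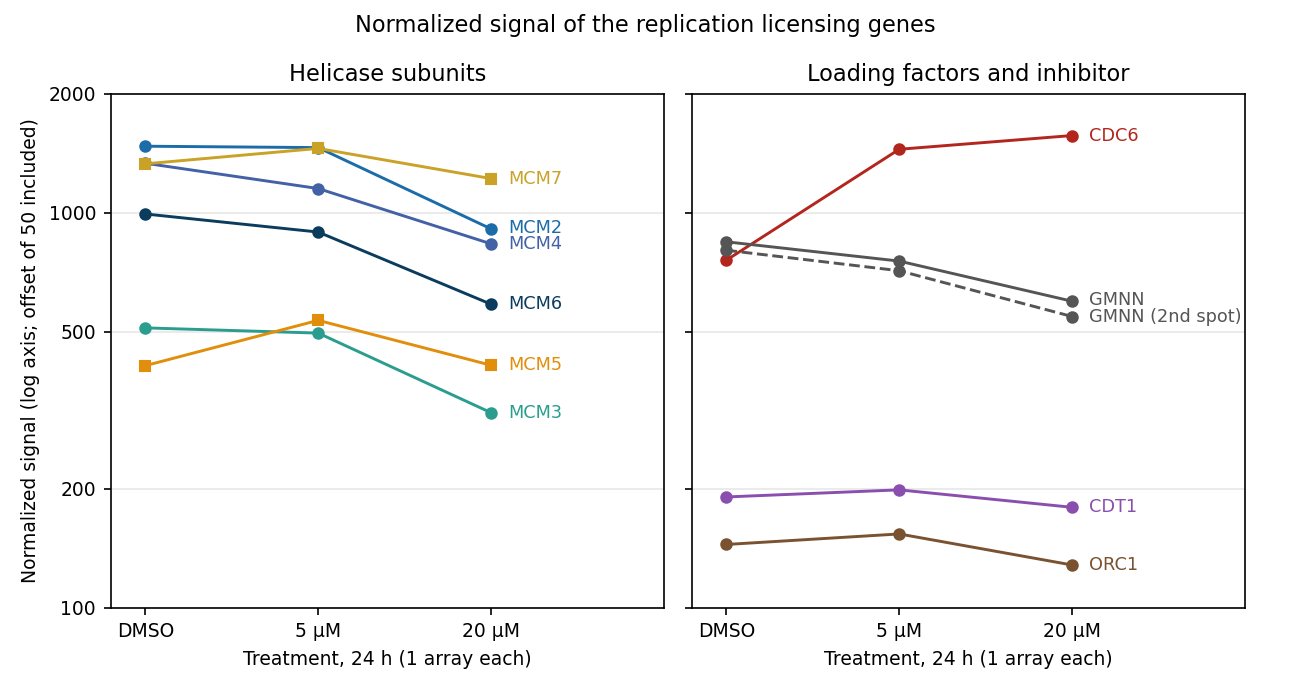
Normalized signal (log axis, offset of 50 included) of every member spot on the 3 arrays, DMSO, 5 µM and 20 µM, with 1 point per array and lines joining the values of a spot. MCM2, MCM3, MCM4 and MCM6 (circles, left) are lowest at 20 µM, MCM5 and MCM7 (squares) are near their DMSO values at 20 µM, with MCM5 highest at 5 µM at 534, and CDC6 (right) goes from 757 in DMSO to 1445 and 1566; levels of different genes are not comparable.

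CDC6, the ATPase that joins ORC and brings in the helicase, differed from DMSO in the other direction. Its normalized signal was 757 in DMSO, and it was 1445 and 1566 at 5 and 20 µM. The difference was already present at the lower dose: the 5 µM array stood 1.91-fold above DMSO, a log2 ratio of 0.93, and the 20 µM array 0.12 above the 5 µM array. That step between the doses depended on the setting: it was 0.26 with median scaling, 0.20 in the authors' value table and -0.40 with the scanner's background column. It was the member 2.07-fold higher at 20 µM, where 0.442% of all genes were 2-fold or more higher and 0.324% 2-fold or more lower. Counted from the highest ratio, CDC6 stood 58th of 16062 genes at 20 µM and 16th of 16075 at 5 µM. In the authors' value table its values were 379, 704 and 807. The uncorrected spot signals, 878, 1291 and 1594, had the same order, although the 5 µM array was the dimmest of the 3 over all spots. CDC6 was read by 1 spot.

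The partners of CDC6 in loading were both less than 1.5-fold from DMSO. ORC1 had 145 in DMSO, 154 at 5 µM and 128 at 20 µM, with ratios of 0.089 and -0.17 to DMSO. It was the dimmest member, at 1.89 times the detection threshold on the 20 µM array. CDT1, which escorts MCM2 to MCM7 to the origin, had 191, 199 and 179.6, with ratios of 0.060 and -0.087. At 20 µM the ratio of ORC1 was just past the technical SD of 0.15. It was below 0 in all 7 settings without the background column that gave a value, at -0.23 with an offset of 16 and -0.32 in the authors' value table. Among these 7, the settings of the detection filter and the probe mean only repeat the main value. The ratios of CDT1 lay within 1 technical SD of 0 at both doses, with -0.18 at 20 µM in the authors' value table.

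Geminin, the inhibitor of CDT1, was lower at 20 µM, just short of 1.5-fold. Its spots gave 843 and 803 in DMSO, 754 and 712 at 5 µM, and 596 and 546 at 20 µM. The log2 ratios at 20 µM were -0.50 and -0.56, and those at 5 µM were -0.16 and -0.17. GMNN was the 1 member with a repeated measurement, and its spots differed by 0.058 at 20 µM and by 0.010 at 5 µM.

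At 5 µM CDC6 was the member that passed 1.5-fold. Of 10 members 1 was at least 1.5-fold higher and 0 were at least 1.5-fold lower, against 0.386% and 0.0871% of all 16075 genes. In the level range of the members the shares were 0.776% and 0.169%. The median of the members was 0.024, and 5 were below 0 and 5 above. Apart from CDC6 and MCM5 all members lay between -0.21, for MCM4, and 0.13, for MCM7. With scaling to a common median 83.0% of the genes in the level range of the members were below 0 at this dose. Their median became -0.16, and that of the members -0.19. CDC6 was then at 0.70 in place of 0.93, and MCM5 at 0.18 in place of 0.38. MCM4 came to -0.45, MCM6 and GMNN to -0.37 each, MCM2 to -0.28 and MCM3 to -0.24. MCM7, CDT1 and ORC1 changed sign, to -0.14, -0.082 and -0.0096. The split over all genes moved from 14 lower and 62 higher to 137 lower and 28 higher, to 41 and 87 with an offset of 16, and to 459 and 296 in the authors' value table.

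Between the doses, 9 of the 10 members were lower at 20 than at 5 µM, the exception being CDC6 at 0.12. Over all genes 50.5% were lower at the higher dose. The members at least 1.5-fold lower were MCM2 at -0.68, MCM3 at -0.67 and MCM6 at -0.61, which makes 3 of 10 against 0.886% of 16036 genes, and 0 were at least 1.5-fold higher against 0.917%. Over the level range of the members these shares were 1.94% and 1.72%. MCM4 followed at -0.46, MCM5 at -0.38 and GMNN at -0.34. MCM5 was thus lower at 20 than at 5 µM although it equalled DMSO at 20 µM. With median scaling 0 members were 1.5-fold lower, since MCM2, MCM3 and MCM6 came to -0.55, -0.58 and -0.50, and the split over all genes was 76 lower and 221 higher in place of 142 and 147.

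**Figure D3:**
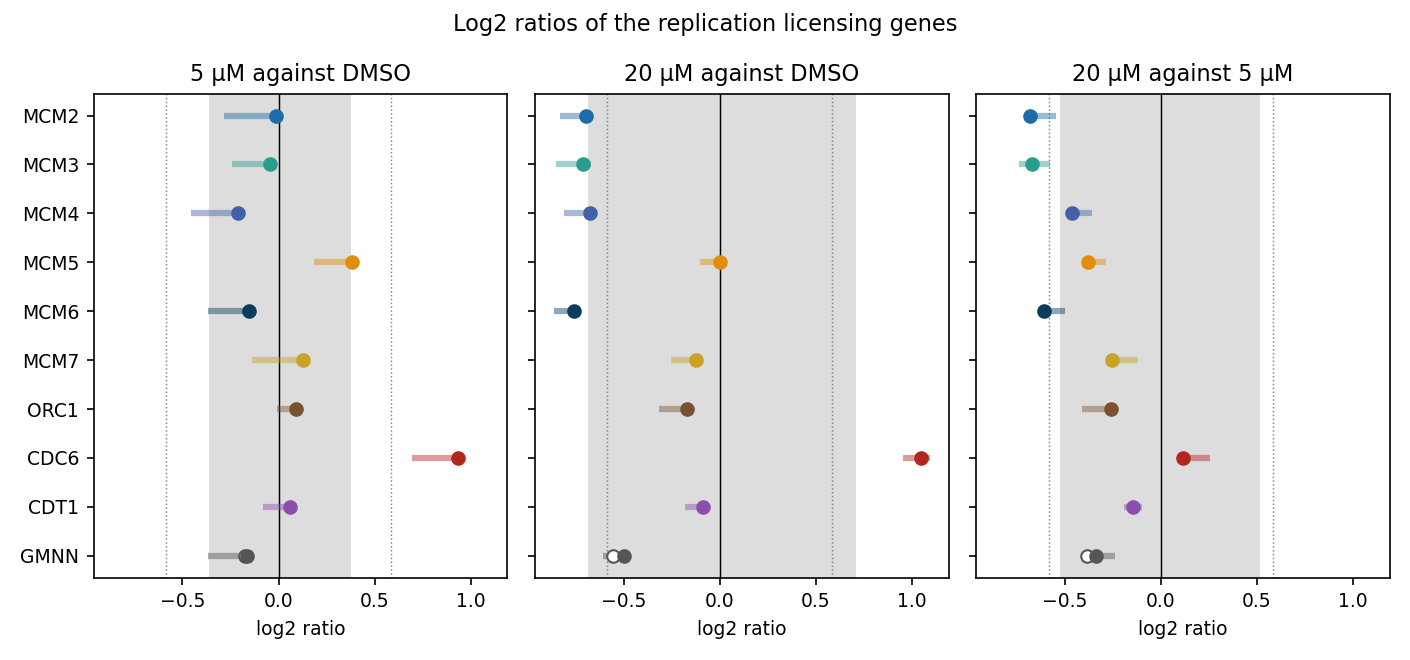
Log2 ratios of the members (points; the open point is the other GMNN spot) in the 3 comparisons, with coloured bars for the range over the main and 7 alternative settings, without the scanner's background column. The grey band holds the middle 95% of the 5925 genes in the level range of the members and dotted lines mark 1.5-fold; CDC6 lies right of the band against DMSO at both doses, MCM5 at 0.38 lies just right of its edge of 0.37 at 5 µM, and MCM2, MCM3 and MCM6 lie left of it at 20 µM.

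Both doses were set against the same DMSO array, so the ratios to it share its error and their likeness is not given as a result. The 5 members MCM2, MCM3, MCM4, MCM6 and GMNN were below DMSO at 5 µM and lower again at 20 µM. The same held for 23.0% of all genes detected on all arrays and 26.0% of those in the level range of the members. The count goes by sign alone, and the 5 µM ratios of MCM2 and MCM3, -0.01 and -0.04, were within the technical SD. With median scaling MCM7, CDT1 and ORC1 joined these members. That made 8 of 10, beside 22.4% of all genes and 31.4% of those in the level range of the members. In the authors' value table the same 5 members were counted, beside 23.4% and 29.2%. CDC6 was above DMSO and higher again, as were 24.5% of all genes. MCM5, MCM7, CDT1 and ORC1 were above DMSO at 5 µM and lower at 20 than at 5 µM, a pattern of 27.5% of all genes.

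**Figure D4:**
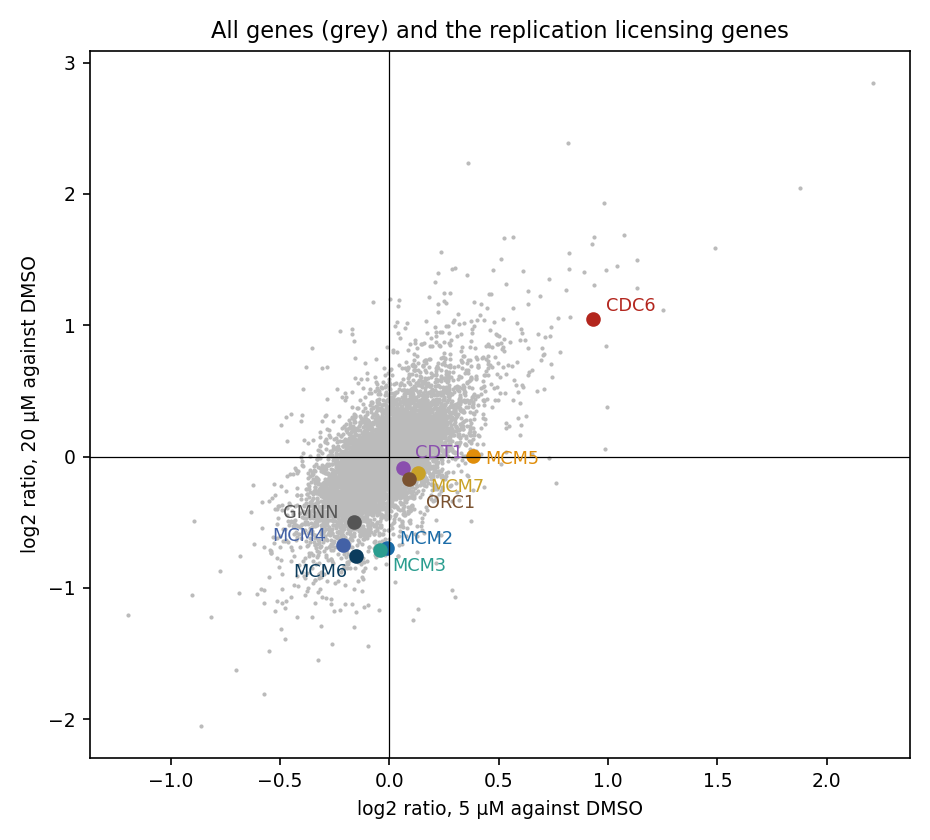
Log2 ratio at 5 µM (x axis) against log2 ratio at 20 µM (y axis), each relative to the same DMSO array; grey points are all genes detected on all 3 arrays and coloured points the 10 members. CDC6 stands alone among the members at 0.93 and 1.05, MCM5 has 0.38 at 5 µM and lies at 0 at 20 µM, and MCM2, MCM3, MCM4 and MCM6 lie together near -0.7 at 20 µM.

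Other genes around the licensing reaction were taken from 6 lists with 64 genes, of which 63 were detected in DMSO and at 20 µM. At 20 µM 6 of them were at least 1.5-fold lower, 1 was at least 1.5-fold higher and 50 were below 0, with a median of -0.15. Over all genes 1.84% were lower, 1.94% higher and 47.1% below 0, and in the level range of the members 3.9% were lower, which is also the background for the single lists that follow. By the authors' values, 15 of the 63 were at least 1.5-fold lower, where 1143 of 16187 genes were. At 5 µM 0 were past 1.5-fold either way, with a median of -0.025, which became -0.13 with median scaling. The lists were drawn up with earlier results of these data known.

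The remaining parts of the loading machinery differed little from DMSO. Of 8 genes, 0 were past 1.5-fold at 20 µM and the median was -0.072. ORC5 was farthest from 0 at -0.34, and LRWD1, which stabilizes ORC on chromatin, had 0.17. MCMBP, a binding partner of the MCM proteins, had -0.099. MCM8 and MCM9, which are related to the helicase subunits, had -0.061 and 0.11. MCM10, which shares the name without belonging to that family and takes part in activating the helicase, had -0.31.

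Genes that turn a licensed origin into a fork included CDC7 and GINS2, the 2 of 17 that were lower by 1.5-fold or more at 20 µM. Of the 17, 16 were below 0, several by less than the technical SD, beside 47.1% of all genes, and the median was -0.23. By the authors' values, 7 of the 17 were at least 1.5-fold lower, where 1143 of 16187 genes were. Apart from GINS2, these 7 had dim spots at 20 µM, between 93 and 147 against a detection threshold of 80.2. TICRR, the dimmest of them, had -0.81 by the authors' values and -0.23 in the main setting. CDC7, the kinase that phosphorylates the loaded MCM ring, had normalized signals of 166, 153 and 107 in the order DMSO, 5 µM and 20 µM, a ratio of -0.63. GINS2, a subunit of the active helicase, had 449.9, 381 and 295, a ratio of -0.61. CLSPN, the checkpoint adaptor claspin, had -0.47. DBF4, the regulatory subunit of CDC7, had -0.38.

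Among 12 detected genes that control the stability of CDT1, CDC6 and geminin, 1 was at least 1.5-fold lower at 20 µM and the median was -0.095. SKP2, a receptor of a ubiquitin ligase that acts on CDT1, had 211 in DMSO, 184 at 5 µM and 121 at 20 µM, a ratio of -0.80. CCNF, cyclin F, which directs the degradation of CDC6, had -0.50, and DTL, the receptor that marks CDT1 in S phase, had -0.37. The spots of SKP2 and CCNF were dim at 20 µM, at 145 and 108, below 2 times the detection threshold of 80.2. These arrays measure RNA, so the levels of the proteins were not seen.

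Of 13 E2F and RB genes 1 was at least 1.5-fold lower, and their median was -0.13. TFDP1, the dimer partner of E2F proteins, had 1473 in DMSO, 1231 at 5 µM and 933 at 20 µM, a ratio of -0.66. E2F2 and E2F8 each had -0.32. Of the 10 kinases, cyclins and inhibitors of G1/S, 2 were at least 1.5-fold lower and 1 was at least 1.5-fold higher. Cyclin A2, CCNA2, had 617, 570.2 and 278, a ratio of -1.15, and cyclin E1, CCNE1, had -0.62. CDKN1A, which encodes the CDK inhibitor p21, went the other way, with 483, 607 and 863, a ratio of 0.84. The spots of E2F2, E2F8 and CCNE1 were dim at 20 µM, at 108, 127 and 116, below 2 times the detection threshold.

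**Figure D5:**
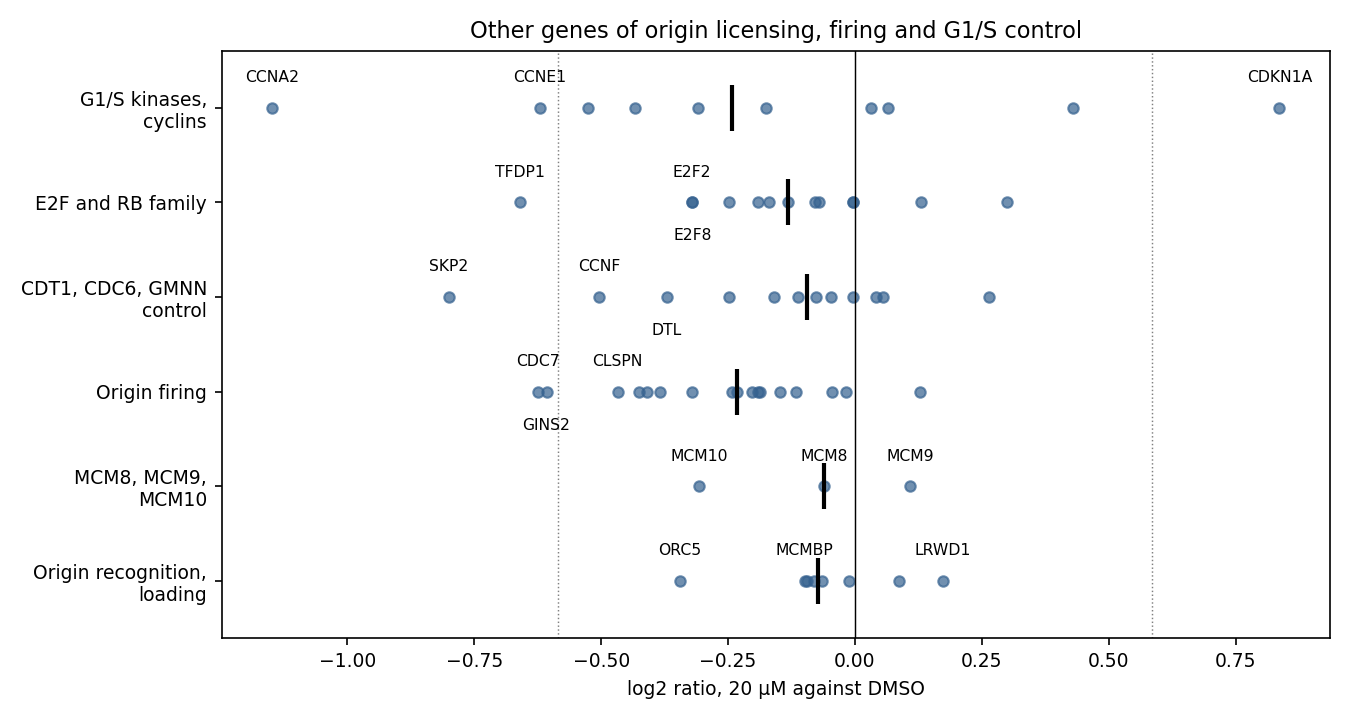
Log2 ratio at 20 µM against DMSO (x axis) of 63 detected genes in 6 lists (rows), with 1 point per gene, black bars for the list medians and dotted lines at 1.5-fold. Names mark the 3 genes farthest from 0 in each list; 6 genes lie left of the lower dotted line and CDKN1A alone right of the upper one.

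Markers of dividing cells were lower at 20 µM as well. Of 7 such markers, 7 were below 0 and 5 of them 1.5-fold or more lower, and the median was -0.82. The shares over the whole array were 47.1% below 0 and 1.84% lower by 1.5-fold. At 5 µM the median of the markers was -0.061, and it was -0.35 with median scaling and -0.20 in the authors' value table. Their uncorrected spot signals summed to 15370 on the DMSO array, to 10596 on the 5 µM array and to 7083 on the 20 µM array. These sums were not normalized between arrays. Those of the colon epithelium markers were 77123, 59676 and 60908 in the same order, of which KRT18 alone gave 56135, 43202 and 42073. By normalized log2 ratio at 20 µM, 5 of these 10 markers were below 0 and 5 above, with a median of 0.044. PCNA, the sliding clamp of replication, had -0.82 and RRM2, a subunit of ribonucleotide reductase, -0.53 at 20 µM. Their part in the ratios of the licensing genes was not tested.

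Across the array, genes other than the members that had an E2F word in a promoter window were compared with those that had none. At 20 µM the median of 729 such genes was -0.023 and 57.6% were below 0, beside a median of 0.0072 and 47.1% for 11908 genes without. At least 1.5-fold lower were 3.7% of the former and 1.81% of the latter, and at least 1.5-fold higher 2.06% and 2.1%. The groups were not matched for signal level, and among genes in the level range of the members 3.9% were at least 1.5-fold lower. This split was made in the main setting only, after the values of the members were seen, and is a description of these arrays.

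Most alternative settings left the direction of the members in place at 20 µM. Over the main and 7 alternatives without the scanner's background column, CDC6 lay between 0.95 and 1.09, MCM2 between -0.83 and -0.68, MCM3 between -0.85 and -0.67, MCM4 between -0.81 and -0.66 and MCM6 between -0.86 and -0.73. GMNN lay between -0.61 and -0.48 and passed 1.5-fold with median scaling. MCM5 was below 0 in 2 of these 8 settings, with a lowest value of -0.10. For members with 1 spot, the settings of the detection filter and the probe mean repeat the main value. With the background column, which follows the signal of the spot itself with a Spearman correlation across spots of 0.967 in DMSO, CDC6 came to 0.27, MCM5 to 0.84, GMNN to 0.42 and MCM2 to -2.30. The spots of the members lay in 10 of the 24 blocks of the array, whose median log2 ratios were between -0.026 and 0.039 in the 3 comparisons.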

How the data were processed

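Total RNA of HT29 cells was measured on 3 one-colour arrays, 1 for each of DMSO, 5 µM and 20 µM. Per the file headers, the deposited scanner files hold the median intensity of each spot, read at 3 gains, with no background taken off. The authors also deposited a table of processed intensity values, with a median of 25 on each array. For these values no software was named in the labels or files.

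Intensities of all spots were background-corrected by normexp (offset 50) in limma 3.58.1 under R 4.3.3, taken to log2 and quantile normalized over 24460 gene spots. A spot was detected above the mean of 480 blank and negative control spots, less 5% at each end, by more than 2 SD. The scanner's background column was kept as an alternative, since it followed the signal of its own spot. A gene was read by its spot detected on most arrays and then brightest. The array annotation gave 1 symbol to 21707 gene spots and none to 2753; 21675 matched a current gene record. Tables were handled in Python 3.11.15 with pandas 2.3.3.

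With 1 array per group no test was run. Genes at least 1.5-fold apart were counted, and 2-fold for 20 µM against DMSO. The alternatives were median scaling, no background correction, the background column, an offset of 16, the authors' value table, no or a stricter detection filter (2 times the threshold) and the mean over the probes of a gene. The main procedure was tested on arrays simulated from the DMSO array, with 2-fold changes in brighter genes. Dim genes, and arrays that differ in the signal of bright genes, were not part of that test. All members were named, and up to 3 genes per list with the largest ratios at 20 µM; DBF4, PCNA, RRM2 and the markers of other cells were named outside this rule. The members and lists were chosen with earlier results of these data known. Precision is limited by the small number of arrays.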

Additional observations from a re-analysis of the deposited data

How the results depend on the processing

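Of 9 group results (counts of members 1.5-fold apart each way and medians, in 3 comparisons), 8 alternatives were tried. With no background correction, an offset of 16, the authors' value table, no detection filter or the mean over probes, all counts stayed within 1.5 times and all medians within the technical SD. Median scaling gave 0 members lower for 20 against 5 µM, in place of 3, and a median of -0.19 at 5 µM against DMSO. The stricter filter left out ORC1 at 20 µM and gave a median of -0.50 against DMSO. The background column gave medians of 0.22 for 5 µM against DMSO and -0.59 for 20 against 5 µM. Under it 1 member was lower and 2 were higher at 5 µM against DMSO, and 5 were lower and 1 higher for 20 against 5 µM; the cause was not tested. Relative to genes of their own level range, the members' median at 20 µM was -0.34 in the main setting, -0.35 with median scaling and -0.42 in the authors' value table. At 5 µM it was 0.020, -0.026 and 0.0093. Of the member ratios at least 1.5-fold from 0 in the main setting, 0 changed sign under the 8 alternatives. The filter settings and the mean over probes could not change the ratio of a member with 1 spot that they kept. Over all genes, the counts that moved by over 1.5 times, given as lower and higher, came to 502 and 225 (median scaling), 509 and 429 (offset of 16), 1143 and 922 (authors' table) and 915 and 880 (background column) at 20 µM against DMSO, in place of 295 and 312. At 5 µM, in place of 14 and 62, they came to 137 and 28, 41 and 87, 459 and 296, and 751 and 695 in the same order, and for 20 against 5 µM, in place of 142 and 147, to 76 and 221, 222 and 226, 489 and 737, and 837 and 804. No paired analysis was possible because each group has 1 array. The dim members ORC1 and CDT1, at 1.89 and 2.51 times the detection threshold at 20 µM, allow the least precise ratios.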

Other observations

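For the member with the highest and the member with the lowest ratio at 20 µM, the genes most like them were taken as those with the smallest Euclidean distance, taken over the ratio of each dose to DMSO. They came from 7950 genes at or above the median level that were detected on all 3 arrays. Nearest to CDC6 was PRRC1, with 1.03 at 20 µM and 0.92 at 5 µM, at a distance of 0.028. DERL2, a gene of ER-associated degradation, had 1.06 and 0.83, and ALG2, a mannosyltransferase of the ER, 1.05 and 0.77. Nearest to MCM6 were UBE2T, a ubiquitin-conjugating enzyme of the Fanconi pathway, with -0.77 and -0.12, GPS1, a subunit of the COP9 signalosome, with -0.75 and -0.19, and RHBDL2 with -0.80 and -0.15. With 2 ratios from 3 arrays this likeness is a description only.

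Genes that start within 1000 bases of a member on the opposite strand, and are read away from it, were looked up as well, a choice made after the values were seen. MCM2 at -0.70 for 20 µM against DMSO stands beside TPRA1 at 0.027, MCM7 at -0.12 beside AP4M1 at 0.094, and ORC1 at -0.17 beside PRPF38A at 0.42. The spot signals of TPRA1 and AP4M1 in DMSO, 148 and 193, were dim, and that of PRPF38A was 557.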
